A study of Mus musculus with 6 samples.

Results

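The genes described here encode the receptor complex for lipopolysaccharide (LPS), its intracellular adaptors and 2 of its brakes. They are Lbp, Cd14, Tlr4, Ly96, Cd180, Myd88, Tirap, Ticam1, Ticam2 and Irak3. They were picked by gene symbol, and all 10 of 10 were found among the 46603 gene identifiers of the count data. All 10 are protein coding, and all 10 passed the filter on low counts that left 15226 genes for testing.

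The cultures were of enteric glial cells (EGCs), which support and surround the neurons of the gut, grown from neurospheres of total intestine of C57BL/6J mouse embryos at E14.5. Cells from the digested gut were kept for 1 week with the growth factors EGF and FGF, then plated with serum as a monolayer until confluent. The 3 control libraries came from such cultures without treatment, and the 3 LPS libraries from cultures given LPS at 100 ng/ml for 12 h. All 6 libraries share strain, origin and culture. No cell sorting step is given for these cultures in the sources used here, and the labels do not say whether the 3 libraries of a group came from separate cultures or dissections. The p-values therefore measure only the spread between these libraries, which may be technical.

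LPS is the outer membrane lipid of Gram-negative bacteria. LBP, a secreted lipid-binding protein, extracts it and hands it to CD14, which passes it to MD-2 (encoded by Ly96), the lipid-binding partner of the receptor TLR4. At the cell surface TLR4 signals through the adaptors TIRAP and MyD88 towards NF-κB and MAP kinases, and from endosomes through TRAM (Ticam2) and TRIF (Ticam1) towards interferon regulatory factors. IRAK-M, encoded by Irak3, holds back signalling at the MyD88 and IRAK complex, and CD180 is a TLR4-like surface receptor that restrains TLR4 in myeloid cells. In the gut, macrophages are a classical site of this machinery, and glia are known to respond to LPS as well.

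Total counts were between 18775316 and 23664312 per library. Expression values are CPM, counts scaled to a common library size after correction for composition with TMM factors. A level of 3 counts corresponded to between 0.124 and 0.167 CPM, and no gene of the receptor complex was near it, the lowest count being 48 for Ticam2 in control replicate 1.

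Both libraries numbered 3 stood apart from the rest in their macrophage transcripts. The summed level of 12 macrophage markers was 3987, 5146 and 12144 CPM in control replicates 1, 2 and 3, and 3982, 5165 and 19658 CPM in LPS replicates 1, 2 and 3. The sums of the libraries numbered 1 and 2 were close between control and LPS, and those numbered 3 were far higher in either group. Lyz2 made up most of each sum, and single markers moved in opposite directions. None of the 12 markers was at 0 in any library. Lyz2, a lysozyme of myeloid cells, averaged 4785 CPM in control and 5645 CPM in LPS. Csf1r, the receptor for macrophage growth factor, averaged 281 and 377 CPM, and Ptprc, the common leukocyte antigen, 85.8 and 165 CPM. These LPS means rest on LPS replicate 3, without which the log2 fold changes were -0.81 for Lyz2, -0.97 for Csf1r and -0.04 for Ptprc. Ptprc was called higher with the replicate number as a block (log2 0.76, edgeR adjusted p = 0.0318, and 0.402 with the group alone). Of the 12, only Adgre1, the gene of the macrophage antigen F4/80, was called with the group alone, higher in LPS (edgeR adjusted p = 0.0452), beside 9.09% of all genes. Adgre1 was at 159, 229 and 472 CPM in control and 952, 1261 and 3700 CPM in LPS. Mrc1, the mannose receptor of resident macrophages, went the other way, from 197, 331 and 752 CPM to 9.29, 10.4 and 131 CPM (log2 -3.08, edgeR adjusted p = 0.146, and 0.0124 with the block). Mrc1, picked as an example after its values were seen, was at -5.44 without LPS replicate 3 (edgeR adjusted p = 0.00873) and at -2.38 without control replicate 3 (0.264). With the replicate number as a block, 4 of the 12 were called higher and 4 lower, beside 15.4% and 14.9% of all genes. Without both libraries numbered 3, a setting chosen after seeing the data, 3 were higher and 5 lower. Among all genes, 3498 were higher and 3159 lower in that setting.

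The 8 glial markers summed to between 692 and 925 CPM in control and between 721 and 756 CPM in LPS, with Sox10, the neural crest and glial transcription factor, averaging 88.0 CPM in control and 77.0 CPM in LPS. S100b, a glial calcium-binding protein, fell from 22.2 to 5.92 CPM on average (edgeR adjusted p = 0.0238). Mesenchymal markers summed to between 15085 and 16122 CPM over the 6 libraries, with 2 of the 7 called higher, beside 9.09% of all genes. These were the matrix proteoglycan gene Dcn (log2 0.90, edgeR adjusted p = 0.0118) and the growth factor receptor gene Pdgfra (log2 0.50, edgeR adjusted p = 0.0114). Lum, another proteoglycan gene, was called lower with the block (log2 -0.75, edgeR adjusted p = 0.00581) and without LPS replicate 3 (-0.98, edgeR adjusted p = 0.0114). The 6 smooth muscle markers all fell, beside 6.71% of all genes, with Acta2 averaging 1157 CPM in control cultures and 303 CPM in LPS cultures (edgeR adjusted p = 0.0117). The calls for Adgre1, S100b, Dcn and Pdgfra were each lost without control replicate 1 or 2 or LPS replicate 1 or 2, with edgeR adjusted p up to 0.1685, 0.0906, 0.0745 and 0.0651. That for Acta2 was lost without control replicate 1 or 2 (edgeR adjusted p up to 0.0636), and that for Myh11, another smooth muscle gene, without any library other than control replicate 3 (up to 0.1435). Without LPS replicate 3 the log2 fold change of Adgre1 was 1.945 in place of 2.78. The libraries therefore hold glial, mesenchymal, smooth muscle and macrophage transcripts side by side, and a level given below is that of the whole culture.

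First, LPS and control were compared for the receptor complex as a whole. Called means an adjusted p under 0.05 in the edgeR quasi-likelihood test, adjusted over all 15226 genes. Lbp, Irak3 and Ly96 rose in LPS, so 3 of the 10 were called higher, and none was called lower. Over all genes tested, 15.8% were called, 9.09% higher and 6.71% lower. With library size alone as scaling, 986 genes were higher and 2054 lower, against 1384 and 1022 with TMM factors, and Lbp, Irak3 and Ly96 were called in either case. The 0 lower calls among these genes were also 0 at an unadjusted p under 0.05, 0 with DESeq2 and 0 with limma-voom. The median log2 fold change of the 10 genes was 0.84, against -0.02 over all genes tested. Tlr4 itself had a log2 fold change of 0.02. With the replicate number as a block, which compares each LPS library with the control library of the same number, 6 of the 10 were called higher and 1 lower. Cd14, Myd88 and Ticam2 joined the higher genes and Cd180 was the lower one. That fit called 30.3% of all genes, 15.4% higher and 14.9% lower, which is the background for its calls. In 6 of the 10 genes the LPS and control libraries did not overlap, all 6 with the LPS libraries above, and 38.7% of all genes had no overlap in either direction.

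**Figure D1:**
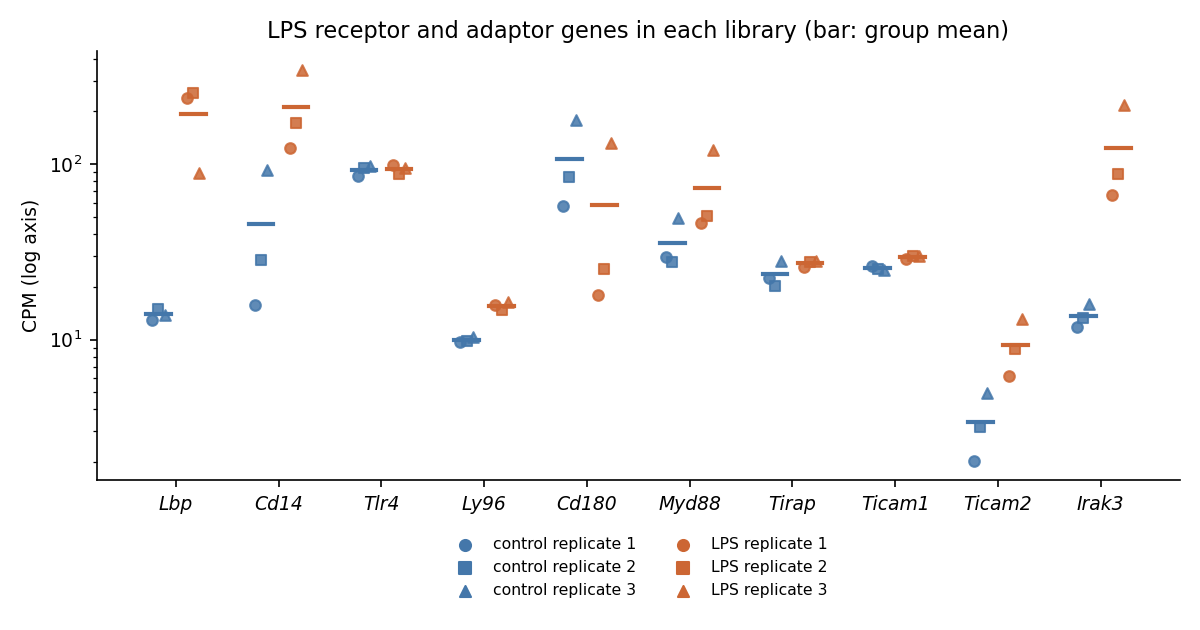
Level of the 10 genes in each library, in CPM on a log axis, with control in blue and LPS in orange, a marker shape per replicate number and a bar at each group mean. Lbp and Irak3 separate widely between groups, Tlr4 libraries lie on top of each other between 85.3 and 99.2 CPM, and the triangles of replicate 3 are the highest of both groups for Cd14, Cd180, Myd88, Ticam2, Irak3, Ly96 and Tirap, by a wide margin for Cd14, Cd180 and Myd88.

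**Figure D2:**
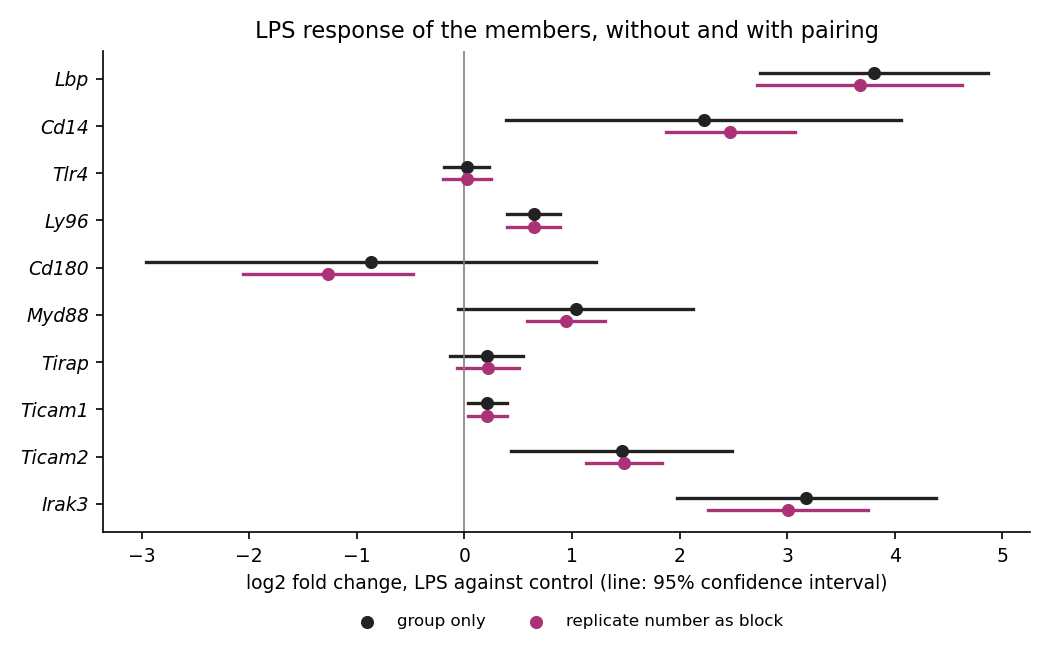
Log2 fold change of each gene, LPS against control, as a point with its 95% confidence interval, from the edgeR fit with the group alone (black) and with the replicate number as a block (magenta). Intervals of Cd14, Cd180, Myd88 and Ticam2 are much narrower with the block, while Tlr4 stays at 0.02 in either fit.

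Lbp, the gene of the LPS carrier protein, showed the largest difference of the 10. It lies on chromosome 2 at 158306493 to 158332852, plus strand (GRCm38, ENSMUSG00000016024). Its level was 12.9, 15 and 13.9 CPM in control replicates 1, 2 and 3, and 239.5, 255 and 89.1 CPM in LPS replicates 1, 2 and 3. The controls were close together and every LPS library was far above them. LPS replicate 3, which held the most macrophage marker RNA, was the lowest of its group, and the part of these markers was not tested. The mean went from 13.9 ± 1.04 to 195 ± 91.6 CPM (SD, n = 3 each). Lbp rose 14-fold (95% confidence interval 6.72 to 29.1), a log2 fold change of 3.81 (SE 0.43, edgeR adjusted p = 0.00505). LBP is best known as an acute-phase protein of the liver. Its gene was called under all 14 alternatives tried, with the highest edgeR adjusted p of 0.0416 without control replicate 2. Number by number the ratio of LPS to control was 18.6, 17 and 6.42, so the libraries numbered 3 gave the smallest rise. In bulk RNA, more cells expressing a gene and more RNA per cell cannot be told apart, here and for each gene that follows.

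Cd14, which encodes the membrane-anchored or shed co-receptor that presents LPS to TLR4 and MD-2, was higher in each LPS library than in any control. It lies on chromosome 18 at 36725067 to 36726798, minus strand (ENSMUSG00000051439). Its level was 15.8, 28.6 and 92.4 CPM in control replicates 1, 2 and 3, and 124, 172 and 344 CPM in the LPS replicates of the same numbers. Replicate 3 was the highest of either group, and control replicate 3 came close to LPS replicate 1. The fitted change was 4.67-fold (95% confidence interval 1.31 to 16.7), log2 2.22 (SE 0.75), and was not called with the group alone (edgeR adjusted p = 0.101). The order of the numbers was that of the macrophage markers, and the part of these in the result was not tested. Within numbers the ratio of LPS to control was 7.84, 6.03 and 3.72, and with the block the log2 fold change was 2.47 (SE 0.23, edgeR adjusted p = 0.00436). Without control replicate 3 Cd14 was also called, at a log2 fold change of 3.28 (edgeR adjusted p = 0.0284). Without both libraries numbered 3 it was 2.77 (edgeR adjusted p = 0.00042).

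Tlr4, the signalling receptor, did not differ detectably between groups. It lies on chromosome 4 at 66827584 to 66930284, plus strand (ENSMUSG00000039005). Its level was 85.3, 95.2 and 98.2 CPM in control and 99.2, 88.5 and 95.2 CPM in LPS. The groups overlapped throughout and neither was higher library by library. The log2 fold change was 0.02 (SE 0.09, 95% confidence interval -0.19 to 0.23, edgeR adjusted p = 0.892), so a change beyond 1.17-fold upwards lies outside the interval. The sign of so small a value was not fixed, and it was -0.13 with library size alone as scaling, which shifted the median of all genes to -0.18.

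Ly96, whose product MD-2 holds the lipid part of LPS in the receptor, rose modestly. It lies on chromosome 1 at 16688051 to 16709611, plus strand (ENSMUSG00000025779). Its level was 9.62, 9.83 and 10.4 CPM in control and 15.7, 14.7 and 16.3 CPM in LPS. The libraries of each group were tightly grouped and the groups were well apart. The rise was 1.56-fold (95% confidence interval 1.32 to 1.85), log2 0.64 (SE 0.10, edgeR adjusted p = 0.0134). The size hardly moved when single libraries were left out, from 0.61 to 0.69, but the call was lost without control replicate 1 (edgeR adjusted p = 0.0676), control replicate 2 (0.0792), LPS replicate 1 (0.0604) or LPS replicate 2 (0.0518).

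Cd180, also named RP105, encodes a surface receptor built like TLR4 but without its signalling domain, and was the single gene of the 10 with lower values in LPS. It lies on chromosome 13 at 102693558 to 102739629, plus strand (ENSMUSG00000021624). Its level was 57.8, 84.4 and 179 CPM in control replicates 1, 2 and 3, and 18, 25.2 and 132 CPM in the LPS replicates. The groups overlapped, because LPS replicate 3 lay above control replicates 1 and 2. With the group alone the log2 fold change was -0.87 (SE 0.85, 95% confidence interval -2.96 to 1.22), which was not called (edgeR adjusted p = 0.534). Within each number the LPS library was lower, by 3.21-fold, 3.35-fold and 1.35-fold. With the block Cd180 fell by 1.27 on the log2 scale (SE 0.30, edgeR adjusted p = 0.0387). It was also called without LPS replicate 3 (-2.31, edgeR adjusted p = 0.0421) and without both libraries numbered 3 (-1.70, edgeR adjusted p = 0.00127), whereas without control replicate 3 the value was only -0.27 (edgeR adjusted p = 0.865). Its levels followed the macrophage markers across numbers in either group, and the part of these was not tested. Ly86, which encodes MD-1, the partner of CD180, was at 9.07, 14.5 and 41.4 CPM in control and 9.93, 10.5 and 55.4 CPM in LPS. Like Cd180 it was highest in replicate 3 of each group, but its log2 fold change was 0.22 (edgeR adjusted p = 0.891). Exons of Cd180 share 182 bp with Mast4 on the other strand.

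**Figure D3:**
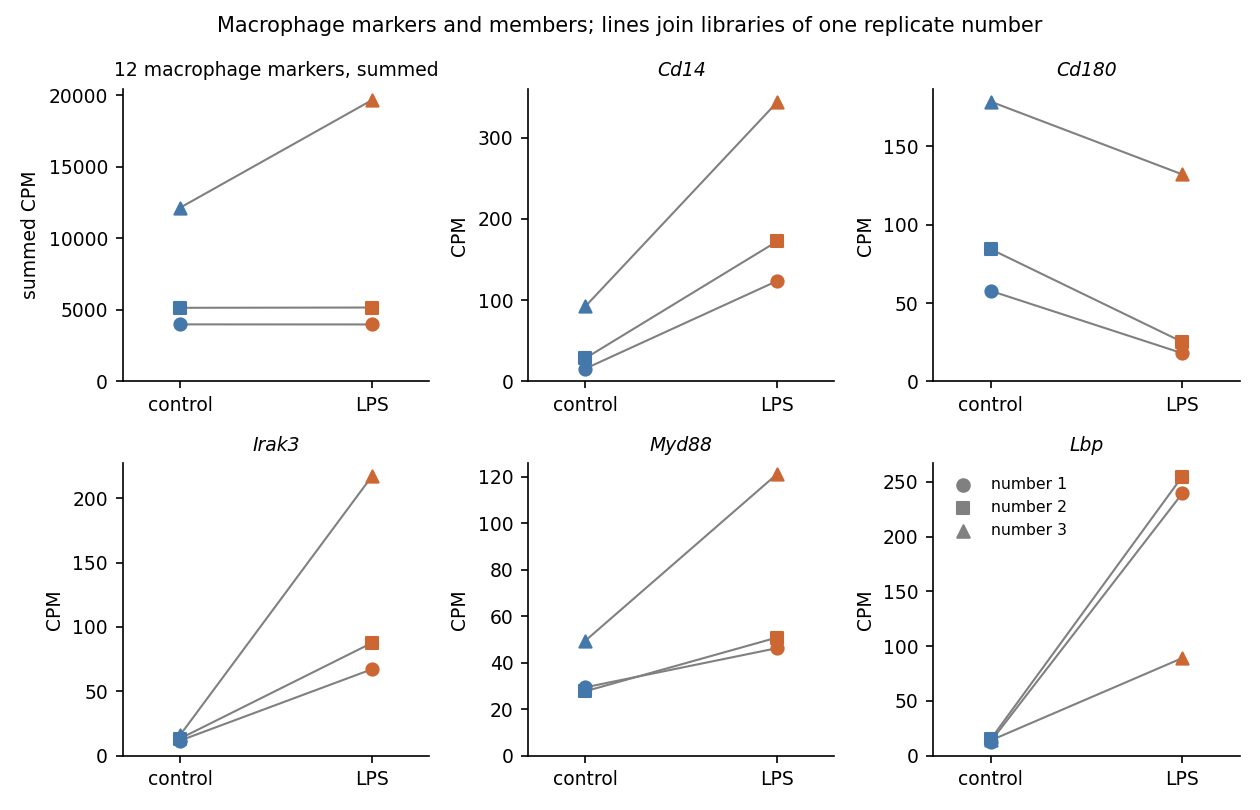
Summed CPM of 12 macrophage markers and CPM of Cd14, Cd180, Irak3, Myd88 and Lbp in control and LPS, on linear axes from 0, with a line joining the libraries of each replicate number. Marker sums of numbers 1 and 2, mostly Lyz2, lie between 3982 and 5165 CPM, Cd14 and Irak3 go up and Cd180 goes down along every line, and the line of number 3 is the lowest for Lbp and the highest elsewhere in LPS.

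Next, the adaptors of the MyD88 arm were examined. Myd88, the adaptor shared by most Toll-like and interleukin-1 receptors, lies on chromosome 9 at 119335934 to 119341411, minus strand (GRCm38, ENSMUSG00000032508). Its level was 29.4, 27.7 and 49.5 CPM in control and 46.3, 50.8 and 121 CPM in LPS. LPS exceeded control within every number, but control replicate 3 lay above LPS replicate 1, so the groups overlapped. The change was 2.05-fold (95% confidence interval 0.961 to 4.36), log2 1.03 (SE 0.44), not called with the group alone (edgeR adjusted p = 0.174). With the block it was 0.95 (SE 0.14) and called (edgeR adjusted p = 0.0127), and without both libraries numbered 3 it was 0.79 (edgeR adjusted p = 0.000478). Without LPS replicate 3 alone the value was 0.45 (edgeR adjusted p = 0.302). The macrophage markers were also highest in the libraries numbered 3, and their part was not tested.

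Tirap, which bridges TLR4 to MyD88 at the membrane, lies on the same chromosome at 35184551 to 35200291, minus strand (ENSMUSG00000032041). Its level was 22.6, 20.1 and 27.9 CPM in control and 26, 27.5 and 28 CPM in LPS. The groups overlapped, and the libraries numbered 3 were level. The log2 fold change was 0.21 (SE 0.14, 95% confidence interval -0.13 to 0.54, edgeR adjusted p = 0.358). Tirap was called only without both libraries numbered 3, at 0.35 (edgeR adjusted p = 0.0232). Reads of neighbours could enter these counts, since exons of Tirap share 446 bp with Gm39318 and 39 bp with Srpr on the other strand, and those of Myd88 share 290 bp with Acaa1a.

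Irak3, the kinase-dead family member that keeps IRAK1 and IRAK4 from leaving the MyD88 complex, rose strongly. It lies on chromosome 10 at 120141648 to 120202130, minus strand (ENSMUSG00000020227). Its level was 11.7, 13.3 and 16.0 CPM in control and 67.1, 87.5 and 217 CPM in LPS. The groups were far apart, and LPS replicate 3 was more than any other library. The mean went from 13.7 ± 2.17 to 124 ± 81.3 CPM (SD, n = 3 each). Irak3 rose 9.04-fold (95% confidence interval 3.93 to 20.8), log2 3.18 (SE 0.49, edgeR adjusted p = 0.0130). The ratio of LPS to control was 5.72, 6.57 and 13.5 within numbers 1, 2 and 3. The call was lost without control replicate 1 (edgeR adjusted p = 0.0677) or control replicate 2 (0.0773), and without both libraries numbered 3 the log2 fold change was 2.65 (edgeR adjusted p = 3.44e-05). Without LPS replicate 3 alone it was 2.49 (edgeR adjusted p = 0.00128). Within either group Irak3 had the order of the summed macrophage markers across numbers, and the part of these was not tested. Exons of Irak3 share 192 bp with Tmbim4 on the other strand.

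The balance between this inhibitor and the adaptor it acts on was then expressed per kilobase of exon. Irak3 per Myd88 was 0.280, 0.337 and 0.227 in control and 1.02, 1.21 and 1.26 in LPS. Control libraries held several times more Myd88 than Irak3 per length, and in each LPS library Irak3 was the higher.

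Sequences upstream of the transcription starts are shown for Myd88, Irak3 and Cd180, which are among the genes called with the group alone or with the block. Windows of the other called genes are not shown. The windows come from RefSeq on GRCm38.p6, run 5′ to 3′ on the strand of the gene, and cover 250 bases before to 50 bases after an annotated start. Myd88, Irak3, Cd180, Tirap and Ticam1, 5 of the 10 genes, matched an entry that could be used, with 8 windows in all. Each window was searched on both strands for GAAANNGAA, the core of the interferon-stimulated response element, for TTCNNNGAA, the STAT site, for TGANTCA, the AP-1 site, and for the NF-κB consensus. Capitals mark the matches. The windows are chr9:119339969-119340268 (minus) for Myd88, chr10:120201548-120201847 and chr10:120202081-120202380 (minus) for the 2 starts of Irak3, and chr13:102693297-102693596 (plus) for Cd180, whose second window overlaps the first almost whole.
Myd88: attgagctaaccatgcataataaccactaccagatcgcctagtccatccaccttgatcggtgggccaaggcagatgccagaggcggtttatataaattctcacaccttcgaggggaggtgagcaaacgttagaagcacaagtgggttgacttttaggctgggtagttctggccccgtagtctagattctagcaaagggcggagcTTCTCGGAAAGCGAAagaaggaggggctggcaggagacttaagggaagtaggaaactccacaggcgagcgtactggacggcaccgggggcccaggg
Irak3 start 1: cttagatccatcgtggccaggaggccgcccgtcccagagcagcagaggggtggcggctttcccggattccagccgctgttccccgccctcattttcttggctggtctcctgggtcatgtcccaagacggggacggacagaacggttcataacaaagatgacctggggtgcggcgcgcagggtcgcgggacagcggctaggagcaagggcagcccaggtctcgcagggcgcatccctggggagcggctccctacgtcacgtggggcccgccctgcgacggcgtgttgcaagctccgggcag
Irak3 start 2: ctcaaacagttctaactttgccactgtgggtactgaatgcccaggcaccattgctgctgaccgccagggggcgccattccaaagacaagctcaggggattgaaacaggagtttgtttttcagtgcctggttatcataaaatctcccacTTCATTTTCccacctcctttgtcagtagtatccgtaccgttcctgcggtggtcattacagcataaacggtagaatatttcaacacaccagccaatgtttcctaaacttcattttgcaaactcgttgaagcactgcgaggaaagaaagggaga
Cd180: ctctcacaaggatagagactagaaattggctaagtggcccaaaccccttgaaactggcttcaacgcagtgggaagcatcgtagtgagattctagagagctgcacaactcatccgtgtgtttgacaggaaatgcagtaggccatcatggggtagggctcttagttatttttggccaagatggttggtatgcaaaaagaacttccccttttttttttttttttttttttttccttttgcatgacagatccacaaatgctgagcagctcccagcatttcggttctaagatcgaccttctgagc

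In the Myd88 window, bases 205 to 213 match the STAT site and bases 211 to 219 the interferon element core on the strand of the gene, and the matches overlap. They lie between 46 and 31 bases before the start. In the second Irak3 window the core matches on the opposite strand at bases 149 to 157. No other match to any of the 4 motifs was found in the 8 windows. Over all 32851 promoter windows of the same length, 8.56% held the interferon core, 8.3% the STAT site, 7.81% the AP-1 site and 8.46% the NF-κB consensus. A match describes the letters in the window, not a bound site.

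The TRIF arm has an adaptor of its own and a bridging adaptor. Ticam1, which encodes TRIF, lies on chromosome 17 at 56269319 to 56276786, minus strand (GRCm38, ENSMUSG00000047123). Its level was 26.2, 25.3 and 25.0 CPM in control and 28.8, 29.9 and 30.1 CPM in LPS. Every LPS library was slightly above every control. The change was 1.16-fold (95% confidence interval 1.02 to 1.32), log2 0.21 (SE 0.07, edgeR adjusted p = 0.108), and was called by DESeq2 alone among the alternatives (DESeq2 adjusted p = 0.0469). With library size alone the log2 fold change was 0.06 for Ticam1 and 0.05 for Tirap.

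Ticam2, which encodes TRAM, the adaptor that brings TRIF to TLR4, lies on chromosome 18 at 46557291 to 46574533, minus strand (ENSMUSG00000056130). It was the lowest of the 10 genes, at 2.03, 3.19 and 4.96 CPM in control and 6.18, 8.80 and 13.1 CPM in LPS. Within each group the level was highest in replicate 3, and the groups did not overlap. The ratio of LPS to control was close from number to number, at 3.04, 2.76 and 2.64. With the group alone the change was 2.75-fold (95% confidence interval 1.35 to 5.6), log2 1.46 (SE 0.42), and missed the threshold (edgeR adjusted p = 0.0685). With the block it was 1.48 (SE 0.13) and called (edgeR adjusted p = 0.00421), as it was without control replicate 3 (1.85, edgeR adjusted p = 0.0484) and without both libraries numbered 3 (1.54, edgeR adjusted p = 0.00622). The macrophage markers rose with the replicate numbers in the same way, and their part was not tested. The count of Ticam2 is uncertain in its level, because 838 bp of its exons are shared on the same strand with Tmed7, a trafficking gene that was at between 201 and 256 CPM and had a log2 fold change of 0.13 (edgeR adjusted p = 0.394).

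Levels of different genes were compared per kilobase of exon. In control the order of the means was Cd14, Cd180, Tlr4, Myd88, Ly96, Ticam1, Tirap, Irak3, Lbp and Ticam2, from 26.3 CPM per kilobase for Cd14 to 0.586 for Ticam2. Neighbours from Cd14 down to Myd88 overlapped in their control libraries, as did Tirap and Irak3, whereas Myd88 and Ly96, Ly96 and Ticam1, Ticam1 and Tirap, Irak3 and Lbp, and Lbp and Ticam2 did not. Cd14 led the control mean only through control replicate 3, with 53.4 CPM per kilobase against 9.10 and 16.5 in control replicates 1 and 2. Without that library Tlr4 came first, and 8 of the 10 genes kept their rank. In LPS the order was Cd14, Lbp, Irak3, Myd88, Tlr4, Ly96, Cd180, Ticam1, Tirap and Ticam2. Cd14 stood at 123 ± 66.7 CPM per kilobase (SD, n = 3), with no overlap with Lbp. Lbp went from the ninth place to the second, at 2.88 in control and 40.3 CPM per kilobase in LPS, and Irak3 from the eighth to the third, at 3.73 and 33.7. In LPS the ranges of Lbp and Irak3 overlapped, and Lbp was the higher in 2 of 3 libraries. Irak3 was above Myd88, and Tlr4 above Ly96, in all 3 libraries, although their ranges overlapped. Cd180 overlapped with Ly96, its neighbour above, and with Ticam1, its neighbour below, and lay above Ticam1 in 1 library. Measured against all tested genes, the control mean of Lbp was above 37.6% of them and its LPS mean above 91.7%. With the longest transcript in place of all exons as length, 3 of the 10 control ranks were kept.

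**Figure D4:**
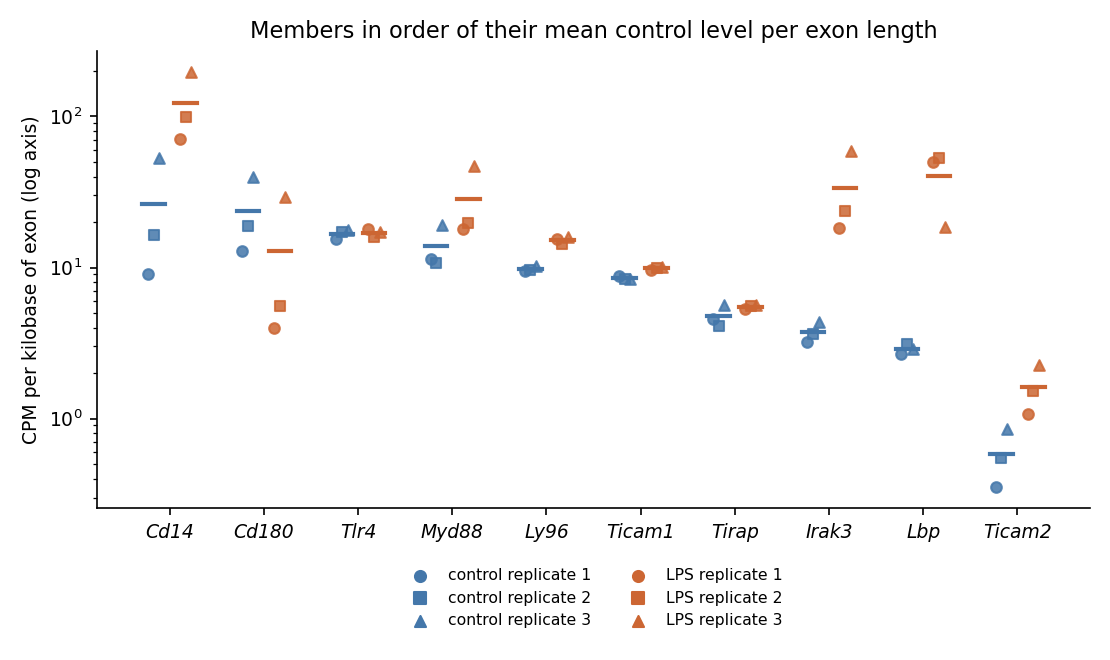
CPM per kilobase of exon on a log axis for each gene and library, ordered by the control mean, with control in blue, LPS in orange, a marker shape per replicate number and a bar at each mean. Lbp and Irak3 move from the low end in control (2.88 and 3.73) to the second and the third place in LPS (40.3 and 33.7), while Tlr4 keeps its level.

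Set against the receptor itself, the partners changed in different directions. Ly96 per Tlr4, both per kilobase, was 0.614, 0.562 and 0.575 in control and 0.860, 0.901 and 0.930 in LPS, so the MD-2 transcript came closer to that of its receptor in each LPS library. Cd14 per Tlr4 was 0.593, 0.962 and 3.02 in control and 4.0, 6.25 and 11.6 in LPS. It was below 1 in control replicates 1 and 2 and above 1 in the other libraries. Lbp per Tlr4 was 0.174, 0.181 and 0.163 in control and 2.78, 3.31 and 1.08 in LPS. Cd180 per Tlr4 was 0.835, 1.09 and 2.24 in control and 0.223, 0.351 and 1.71 in LPS, lower in LPS within each number, with overlap between the groups.

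For each gene, the tested genes with the most similar pattern over the 6 libraries were looked up by the mean absolute difference of log2 CPM after centring each gene on its own mean. For Cd14 these were Samsn1 (0.178), Gmfg (0.246) and Csf3r (0.253). For Cd180 they were Lair1 (0.0629), Fam105a (0.109) and Hpgds (0.122). Irak3 was closest to Ikbke (0.195), Uba7 (0.202) and Tor3a (0.204). For Lbp they were Prr16 (0.0979), Ier3 (0.147) and Cd40 (0.178). Myd88 was closest to Cpd (0.0884), Il15 (0.0985) and Armc7 (0.0991), and Ticam2 to Blvrb (0.0966), Ankrd33b (0.114) and Nppc (0.122). Ly96 was closest to Elk3 (0.0379), Tirap to Vrk3 (0.0323), Ticam1 to Pmpca (0.0161) and Tlr4 to Fbxl18 (0.0115), genes whose levels hardly vary being easily close to many others.

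The receptor genes were then placed among the other genes of the pathway, in 4 lists of 41 genes of which 40 were tested, since Sigirr was too low. Of the 40, 11 were called higher and 2 lower, beside 9.09% and 6.71% of all genes. The first list holds chaperones, trafficking factors, LPS-handling enzymes and partners of the receptors. Of its 10 genes, 2 were called higher and 1 lower, with a median log2 fold change of 0.26. Hsp90b1, the chaperone gp96 that folds Toll-like receptors, rose by 0.44 on the log2 scale (edgeR adjusted p = 0.0380), from 1146 ± 36.5 to 1558 ± 136 CPM (SD, n = 3 each). Aoah, whose enzyme removes acyl chains from LPS and so inactivates it, rose from 4.28, 9.21 and 18 CPM to 55.2, 97.7 and 273 CPM, log2 3.76 (SE 0.81, edgeR adjusted p = 0.0329). Its log2 fold change was 2.86 without LPS replicate 3 (edgeR adjusted p = 0.0297) and 4.41 without control replicate 3 (0.0412). Its libraries were highest in replicate 3 of each group, as were the macrophage markers, whose part was not tested. Pltp, a lipid transfer protein related to LBP, fell by 0.82 on the log2 scale (edgeR adjusted p = 0.0435), from 153 ± 21.5 to 86.9 ± 20.9 CPM (SD, n = 3 each). Rab10, a small GTPase of TLR4 transport, had the highest 6-library mean of the genes without a call, through LPS replicate 3 at 327 CPM, and averaged 206 CPM in control and 256 CPM in LPS (edgeR adjusted p = 0.267). Tmed7, also without a call, lay above it in the other 5 libraries. These calls were lost in turn without control replicate 1 or 2 or LPS replicate 2, with edgeR adjusted p up to 0.158 for Hsp90b1, 0.138 for Aoah and 0.15 for Pltp. Those of Hsp90b1 and Pltp were also lost without LPS replicate 1, and that of Hsp90b1 without control replicate 3, with library size alone or without a filter on low counts.

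In the MyD88-dependent list, 2 of 14 genes were called higher and none lower by edgeR, beside 9.09% and 6.71% of all genes called. The median log2 fold change was 0.14. At an unadjusted p under 0.05 none was lower either, while Peli1 (log2 1.27, edgeR unadjusted p = 0.0101) and Ube2v1 (log2 0.68, edgeR unadjusted p = 0.0340) were also higher. Ube2v1 was low, averaging 0.555 CPM in control and 0.892 CPM in LPS. Irak2, a kinase of the MyD88 complex, rose by 0.87 on the log2 scale (edgeR adjusted p = 0.0413), from 33.0 ± 6.17 to 60.2 ± 13.6 CPM (SD, n = 3 each). Ikbkb, the kinase subunit that phosphorylates the NF-κB inhibitors, rose by 0.49 on the log2 scale (edgeR adjusted p = 0.0165), from 68.7 ± 5.62 to 96.7 ± 3.54 CPM (SD, n = 3 each). Tab2, an adaptor of the kinase TAK1 and the most abundant gene without a call, averaged 151 CPM in control and 167 CPM in LPS (edgeR adjusted p = 0.519). The calls for Irak2 and Ikbkb were each lost without control replicate 1 or 2 or LPS replicate 1 or 2, with edgeR adjusted p up to 0.153 and 0.0938. With the block 4 of the 14 were called higher, beside 15.4% of all genes. Irak2 was highest in replicate 3 of each group, as were the summed macrophage markers, whose part was not tested.

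In the TRIF-dependent list, 3 of 5 genes were called higher, beside 9.09% of all genes, with a median log2 fold change of 0.66. Traf3, the ubiquitin ligase that links TRIF to its kinases, was at 51.1, 52.3 and 51.9 CPM in control and 109, 100.0 and 83.4 CPM in LPS, log2 0.91 (edgeR adjusted p = 0.00614). Ikbke, a kinase that activates interferon regulatory factors, went from 28, 27.8 and 41.6 CPM to 159.9, 171 and 347 CPM, log2 2.80 (SE 0.37, edgeR adjusted p = 0.00839). Tbk1, the related kinase, rose by 0.66 on the log2 scale (edgeR adjusted p = 0.0412), from 62.9 ± 9.79 to 99.3 ± 14.8 CPM (SD, n = 3 each). Every LPS library lay above every control for all 3 genes, and 38.7% of all genes had no overlap between the groups in either direction. Ikbke and Tbk1 were highest in replicate 3 of each group, as were the summed macrophage markers, whose part was not tested, while for Traf3 LPS replicate 3 was the lowest of its group. Ripk1, a kinase bound by TRIF and the most abundant gene without a call, averaged 63.2 and 72.9 CPM (edgeR adjusted p = 0.525). The call for Ikbke was lost without control replicate 2 (edgeR adjusted p = 0.0578), and that for Tbk1 without any library other than control replicate 3 (edgeR adjusted p up to 0.155), whereas Traf3 was called with each library left out. Without a filter on low counts Tbk1 was not called either.

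Among the negative regulators, 4 of 11 tested genes were called higher and 1 lower, beside 9.09% and 6.71% of all genes, with a median log2 fold change of 0.04. Socs1, a suppressor of cytokine and Toll-like receptor signalling, was at 1.99, 2.43 and 1.98 CPM in control and 16.5, 18.6 and 19.7 CPM in LPS, log2 3.09 (SE 0.15, edgeR adjusted p = 0.0003). Tnfaip3, the ubiquitin-editing enzyme A20, went from 19.9, 23.3 and 36.5 CPM to 205, 262 and 91.5 CPM, log2 2.81 (SE 0.45, edgeR adjusted p = 0.0146). As for Lbp, LPS replicate 3 was the lowest of its group. Tnip1, a partner of A20, rose by 2.74 on the log2 scale (edgeR adjusted p = 0.000183), from 43.3 ± 1.57 to 289.7 ± 33.6 CPM (SD, n = 3 each). Il1rl1, better known as the receptor of interleukin-33, rose by 2.55 on the log2 scale (edgeR adjusted p = 0.00255), from 3.30 ± 0.976 to 19.4 ± 1.70 CPM (SD, n = 3 each). Atf3, a transcriptional repressor of inflammatory genes, fell by 0.76 on the log2 scale (edgeR adjusted p = 0.00259), from 168 ± 7.41 to 99.0 ± 3.46 CPM (SD, n = 3 each). Tollip, an IRAK-binding inhibitor and the most abundant gene without a call, averaged 150.3 and 147 CPM (edgeR adjusted p = 0.808). The call for Tnfaip3 was lost without control replicate 1 or 2 or LPS replicate 1 or 2 (edgeR adjusted p up to 0.0856), and the other 4 calls were made with each library left out.

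**Figure D5:**
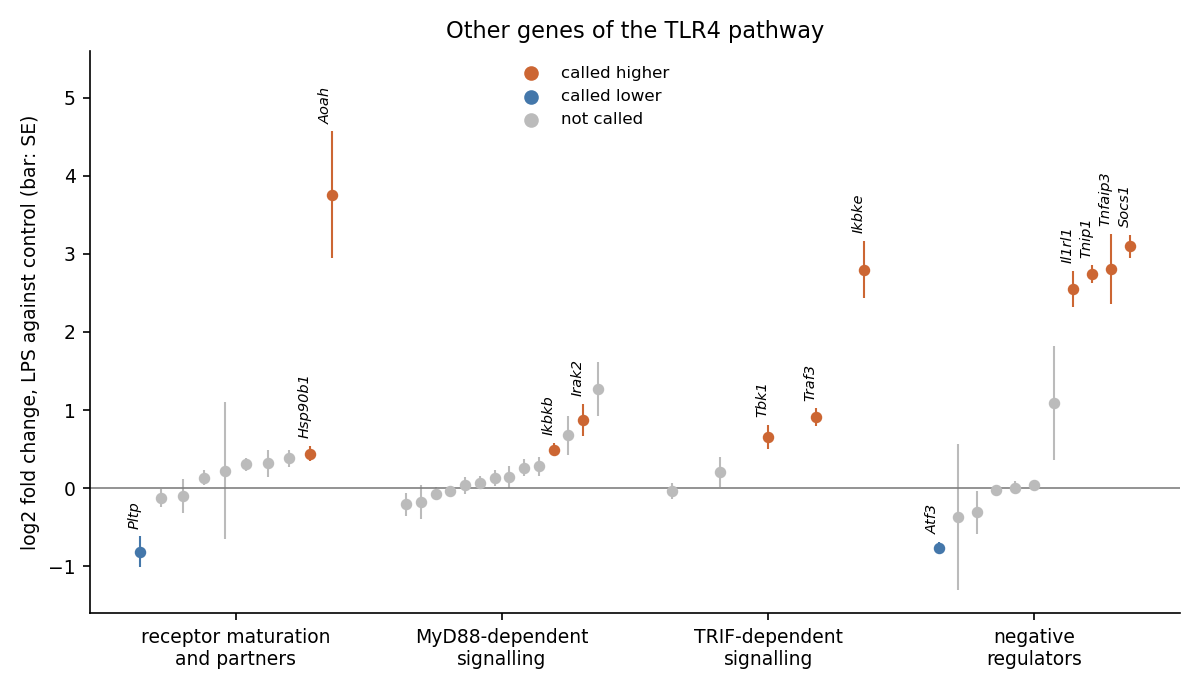
Log2 fold change, LPS against control, of 40 further TLR4 pathway genes in 4 lists, each gene a point with its standard error, orange where called higher, blue where called lower and grey where not called. The 11 higher genes include Aoah at 3.76, Socs1 at 3.09 and Ikbke at 2.80, and the 2 lower ones are Pltp at -0.82 and Atf3 at -0.76.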

How the data were processed

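Poly(A) RNA was sequenced from 3 control and 3 LPS libraries, and groups and replicate numbers were taken from the sample titles. The authors deposited raw counts per gene, whole numbers that were neither normalized nor pooled. The submitters' processing notes name cutadapt 1.15, Bowtie2 2.3.3.1, STAR 2.5.2b, SAMtools 1.5 and featureCounts 1.5.3, on GRCm38. The library kit keeps strand, but the strand setting of the counting is not given in the sources used here, so reads of exons shared with another gene may be misassigned. A table of the whole series held the same counts and was not used.

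Genes were filtered with filterByExpr (minimum count 10, minimum total 15) and scaled with TMM, and LPS was compared with control by the two-sided quasi-likelihood F-test of edgeR 4.0.16 in R 4.3.3, with Benjamini-Hochberg adjustment over 15226 genes. SEs were derived from the F statistic. The scripts were tested on simulated data. Positions come from GENCODE M21, as do exon lengths. Log2 CPM for pattern likeness used a prior count of 2. Floors of 3 counts cover counting error only.

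The meaning of the replicate numbers is not labelled. After subtracting group means, gene-wise deviations had r = 0.513, 0.334 and 0.613 between control and LPS libraries numbered 1, 2 and 3. LPS replicate 2 correlated more with control replicate 1 (0.419), and LPS replicate 1 had r = 0.323 with control replicate 2. Libraries numbered 3 had r between -0.564 and -0.396 with those of other numbers in the other group. These values set number 3 apart but do not settle how numbers 1 and 2 pair. The numbers were taken as pairs from these same data and not from the labels. Calls with the block depend on that choice and are no independent support. The fit with a replicate block is printed where it changed a call of a named gene. Other alternatives were DESeq2 1.42.0, limma-voom (limma 3.58.1), other scaling and filters, and leaving out each library.

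The members, pathway lists and markers were chosen with earlier results of these data known. Named were all members, the pathway genes called and the most abundant uncalled gene of each list, example markers, the 3 genes of most similar pattern (1 for the members that varied least), and the promoters of called members that are off chromosome 18 and in the table. A list's most abundant gene is that of the highest mean CPM over 6 libraries.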

Additional observations from a re-analysis of the deposited data

How the results depend on the processing

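Each count of calls was recomputed under 14 alternatives. Lbp was called under all 14, Irak3 under 12 and Ly96 under 10, while the all-gene median was at -0.02 for TMM scaling, -0.18 for library size alone and -0.0043 for relative log expression factors (log2). With library size alone 2054 genes were lower, and Tlr4 was at -0.1324 and Tab2 at -0.008112. DESeq2 called 2079 genes higher and 1673 lower, and 6 of the 10 receptor complex genes higher, adding Cd14, Ticam1 and Ticam2. With the replicate block, which pairs libraries by number, 2343 genes were higher and 2273 lower, 6 of the 10 genes were higher and 1 lower, and it changed no call of the 10 other than those of Cd14, Myd88, Ticam2 and Cd180. It called 16 pathway genes higher and 2 lower, adding Cnpy3, Rab11a, Chuk, Peli1 and Ptpn6. Leaving out single libraries gave 379 (without control replicate 2) to 1964 (without LPS replicate 3) genes higher and 112 to 1426 lower for the same libraries. The 10 genes had 1 (without control replicate 1 or 2) to 5 (without control replicate 3) higher calls and 0 to 1 (without LPS replicate 3) lower ones. The pathway genes had 4 to 12 higher and 1 to 2 lower. Tlr4 ranged from -0.02808 (without control replicate 1) to 0.07862 and was -0.0144 without LPS replicate 1, and Tollip ranged from -0.06226 (without LPS replicate 1) to 0.002971 (without LPS replicate 3). Without both libraries numbered 3, chosen after seeing the data, 3498 genes were higher and 3159 lower, 7 of the 10 genes higher and 1 lower, 19 pathway genes higher and 4 lower, and Tollip was at 0.02929. Of the 10 ranks by control level per kilobase, 3 were kept with the longest transcript as length, and 8 to 10 with a control library left out. With a library left out fewer samples remained, and the cause of the other changes was not tested. Of the 10 receptor complex genes, depth limits Ticam2 most, with 48 to 250 counts per library.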
